A study of Mus musculus with 20 samples.

Results

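Cyp17a1, Hsd17b3, Hsd17b1 and Cyp19a1 encode the enzymes that turn progestogens into androgens and androgens into estrogens, and their RNA was followed across the ovaries of normal and Ames dwarf mice at 2 ages. The 4 genes were chosen by their measured levels and group differences in these same libraries, out of 23457 genes counted, so their levels and differences are given as a description with no test. All 4 passed the filter on low counts that left 16099 genes for the fits.

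Ovarian sex steroids are made by 2 cell types in turn. Theca cells, which surround the follicle and respond to luteinizing hormone, carry CYP17A1, the enzyme that converts progestogens to androgen precursors. Granulosa cells inside the follicle, which respond to follicle-stimulating hormone, carry CYP19A1 (aromatase), which converts androgens to estrogens, and HSD17B1, which reduces estrone to the more active estradiol. HSD17B3 reduces androstenedione to testosterone and is best known as an enzyme of the Leydig cells of the testis.

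RNA was sequenced from ovaries of 20 female mice, 5 in each of 4 groups. Normal mice were heterozygous (N/df) and dwarf mice homozygous (df/df) for the Ames dwarf mutation, and each genotype was sampled at 6 and 22 months of age. Ames dwarf (df/df) mice lack growth hormone, prolactin and thyroid-stimulating hormone; the normal controls carry 1 copy of the same allele. The labels give no stage of the estrous cycle, and 1 library is treated here as 1 animal.

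Library depth spanned 1365640 to 36068284 gene counts. The shallowest was normal 6-month replicate 3. Defining granulosa, theca and luteal markers were read in every group, but normal 6-month replicate 2 stood apart: its summed luteal markers were 213 CPM (counts scaled to a common library total) against 10845 to 13833 CPM in the rest of its group, its granulosa markers 284 against 2762 to 5931 CPM, and its oviduct markers 6876 against 24.4 to 296 CPM. Dwarf 22-month replicate 2 also differed from its group, with luteal markers at 1583 against 3874 to 4205 CPM, granulosa markers at 1427 against 2339 to 2850 CPM, Sertoli markers at 563 against 1889 to 3406 CPM and B-cell and plasma-cell markers at 123 against 41.8 to 49.8 CPM. Normal 22-month replicate 3 had the highest summed B-cell and plasma-cell markers, 1069 CPM. Of the 40 within-group pairs, dwarf 22-month replicates 1 and 4 lay nearest together, with a chi-square of 2.46 per degree of freedom over 14944 genes against 12.2 or more in the other 39; this still exceeded sampling noise, and they were kept as separate samples. Member results are given below with and without these libraries where they differ.

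In mm10 coordinates, Cyp17a1 lies on the minus strand of chromosome 19 (46667165 to 46673000, 8 exons), Hsd17b3 on the minus strand of chromosome 13 (64058274 to 64089201, 11 exons), Hsd17b1 on the plus strand of chromosome 11 (101078411 to 101080505, 6 exons) and Cyp19a1 on the minus strand of chromosome 9 (54165937 to 54193442, 9 exons). None of the 4 shares exon bases with another gene of the deposited annotation. The RefSeq promoter table (build GRCm38.p6) held windows for 2 of the 4 genes, Hsd17b3 and Cyp19a1. The sequences below are the window of Hsd17b3, whose groups separated by genotype, and the Cyp19a1 window nearest to the annotated gene, shown from 250 bases before to 30 bases after the start site. They are chr13:64089172-64089451 and chr9:54193714-54193993, both on the minus strand and written 5′ to 3′, with matches to the searched motifs in capitals.
Hsd17b3 promoter: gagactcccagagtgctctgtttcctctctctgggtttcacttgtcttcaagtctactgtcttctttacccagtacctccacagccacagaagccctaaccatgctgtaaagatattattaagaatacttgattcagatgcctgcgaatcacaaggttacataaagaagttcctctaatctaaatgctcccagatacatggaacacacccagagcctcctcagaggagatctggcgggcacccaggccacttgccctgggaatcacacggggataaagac
Cyp19a1 promoter: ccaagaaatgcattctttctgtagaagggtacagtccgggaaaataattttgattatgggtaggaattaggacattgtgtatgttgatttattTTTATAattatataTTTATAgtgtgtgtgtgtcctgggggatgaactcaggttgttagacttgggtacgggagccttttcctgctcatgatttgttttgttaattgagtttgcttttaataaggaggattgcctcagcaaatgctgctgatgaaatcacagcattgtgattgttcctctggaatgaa

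Each promoter was searched on both strands for 5 motifs: TGACG, the core of the cyclic AMP response element; AGGTCA, a nuclear receptor element; AAGGTCA, its longer form bound by NR5A factors, which contains the former; TATAAA, the TATA box; and AGATAA, the motif bound by GATA factors. Of 32851 promoter windows in the table, 20.8%, 16.3%, 4.72%, 13.6% and 11.2% held these motifs, in that order. These shares are over windows of 300 bases, while matches in the member windows were kept only within the first 280 bases. The Hsd17b3 sequence held none of the 5 motifs. The Cyp19a1 sequence held TTTATA, the TATA box on the opposite strand, at 157 and at 143 bases before the start site. Both other Cyp19a1 windows also had a match: the nuclear receptor element, on the opposite strand, in the window farthest upstream, and the TATA box on both strands in the middle one.

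Hsd17b3 was read at 5.73 CPM or more in every dwarf ovary and at 2.93 CPM or less in every normal ovary. Cyp17a1 and Hsd17b1 were lower in normal ovaries at 22 than at 6 months by mean, 4.89-fold and 3.66-fold, and by 1.61-fold and 1.50-fold in dwarf ovaries, with overlapping ranges. Without normal 6-month replicate 4, the normal age ratio of Cyp17a1 was 2.45-fold. Cyp19a1 was at 11.6 CPM or less in 19 of 20 libraries and at 46.2 CPM in 1 normal ovary at 6 months. The plot of member levels by library shows these patterns.

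**Figure D1:**
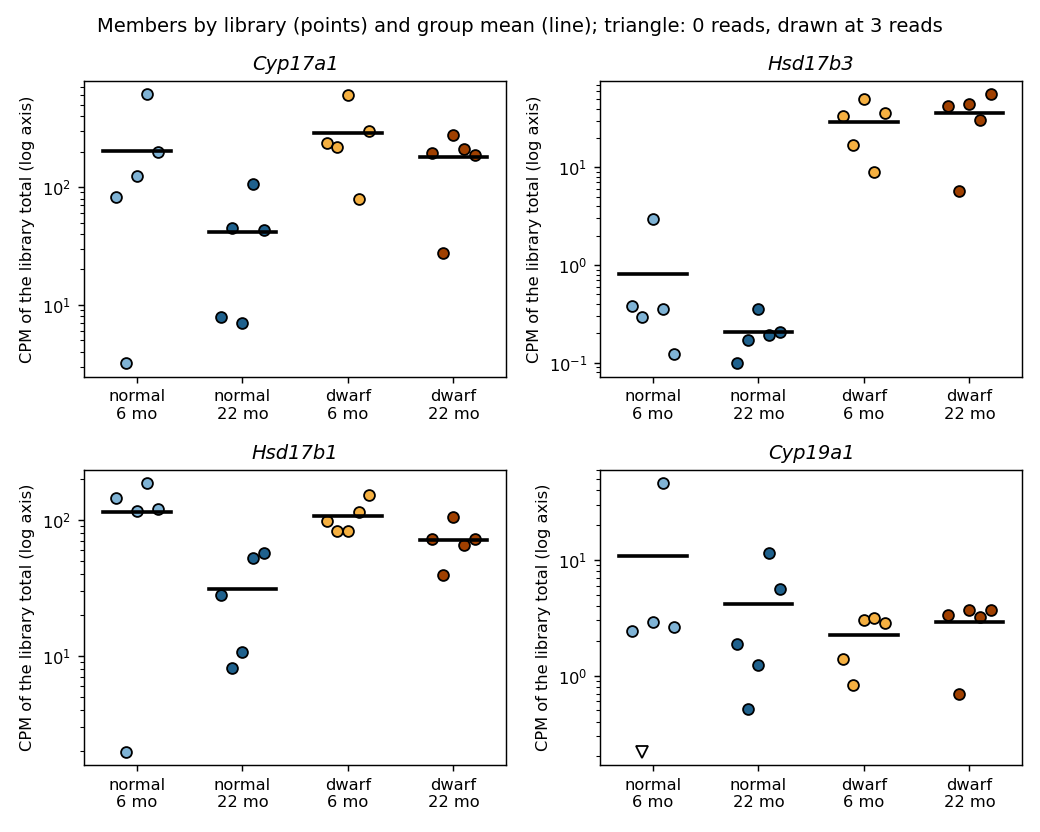
CPM of the library total (log axis) for each of the 4 genes in each of the 20 libraries, by genotype and age in months; points are libraries, lines are group means (n = 5), and the open triangle is a library with 0 reads drawn at the level of 3 reads. Dwarf points lie above all normal points for Hsd17b3 alone; for Cyp19a1 1 normal 6-month library at 46.2 CPM stands above the rest.

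Cyp17a1, the androgen-precursor enzyme of theca cells, was measured in normal 6-month ovaries at 81.7, 3.20, 125, 610 and 198 CPM (replicates 1 to 5). At 22 months normal ovaries had 7.85, 44.7, 7.02, 105 and 43.0 CPM. Dwarf ovaries had 235, 219, 608, 78.7 and 300 CPM at 6 months and 195, 27.8, 274, 209 and 187 CPM at 22 months. All ranges overlapped: 4 of 5 dwarf libraries at 22 months were above every normal library of that age, and replicate 2 was below 3 of them. Group means were 204 ± 238 CPM and 41.6 ± 40.1 CPM in the normal 6- and 22-month groups (SD, n = 5). In dwarf mice they were 288 ± 196 and 179 ± 91.0 CPM.

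The fitted log2 difference of Cyp17a1 between ages was -2.34 in normal and -0.78 in dwarf ovaries, against within-group SDs of log2(CPM + 0.5) of 2.28 and 1.20. Without normal 6-month replicate 4 the normal difference was -1.46 and the mean of that group 102 CPM. Between genotypes it was 0.50 (dwarf minus normal) at 6 months and 2.06 at 22 months, with SDs of 2.09 and 1.51. The dwarf age response exceeded the normal one by 1.56, beside a within-group SD over all groups of 1.82. That SD is a spread between single libraries and not the error of the difference. The genotype difference at 6 months ranged from 0.07 to 1.41 as libraries were left out singly, and it was 0.01 without the 3 normal libraries that stood apart (6-month replicates 2 and 3, 22-month replicate 3). At 22 months the same omission gave 1.80, a mean 3.55-fold higher in dwarf ovaries, and omitting normal 22-month replicate 4 gave 2.72.

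Hsd17b3, the testosterone-forming enzyme, had 21 reads in all 5 normal 6-month libraries together and 14 in the 5 at 22 months. Normal 6-month ovaries gave 0.385, 0.291, 2.93, 0.357 and 0.123 CPM, and normal 22-month ovaries 0.0987, 0.172, 0.354, 0.193 and 0.207 CPM. Each of these values rested on 1 to 8 reads. Pooled over the group, the normal level was 0.341 CPM at 6 months (95% Poisson interval 0.211 to 0.521) and 0.204 CPM at 22 months (0.112 to 0.343); intervals here cover counting error alone. Dwarf ovaries held 3511 and 1614 reads in all. Their levels were 33.2, 16.9, 50.1, 9.00 and 35.8 CPM at 6 months and 42.9, 5.73, 44.0, 30.6 and 55.7 CPM at 22 months.

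The genotypes did not overlap at either age. Group means were 29.0 ± 16.2 (dwarf) and 0.817 ± 1.19 CPM (normal) at 6 months, a ratio of 35.5, and 35.8 ± 19.0 and 0.205 ± 0.0931 CPM at 22 months, a ratio of 175 (SD, n = 5). The lowest dwarf library was 3.07 times the highest normal library at 6 months and 16.2 times at 22 months. Over all tested genes edgeR's quasi-likelihood test, at a Benjamini-Hochberg adjusted p under 0.05, called 2.27% higher and 2.3% lower in dwarf ovaries at 6 months, and 1.96% higher and 1.86% lower at 22 months; Hsd17b3 was chosen on this contrast, so nothing is read from that comparison. The highest normal value came from 4 reads in the shallowest library. Without the 3 normal libraries that stood apart the ratios were 101 and 214. This omission removed the highest normal value at each age (2.93 and 0.354 CPM) and kept dwarf 22-month replicate 2.

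The fitted log2 genotype differences of Hsd17b3 were 6.18 at 6 months and 7.28 at 22 months, against within-group SDs of 0.97 and 0.92. These SDs are of log2(CPM + 0.5), where the added 0.5 exceeds most normal levels and narrows their spread. The differences on that scale are smaller and are given in the section on processing. Leaving out each library in turn moved them between 5.81 and 6.68 and between 7.07 and 7.68. With ages compared within genotype, the dwarf levels overlapped fully, with a difference of 0.20 (SD 1.13) that ran from -0.0024 to 0.52 with libraries left out. In normal ovaries the difference was -0.90 (SD 0.70), on the few reads given above.

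**Figure D2:**
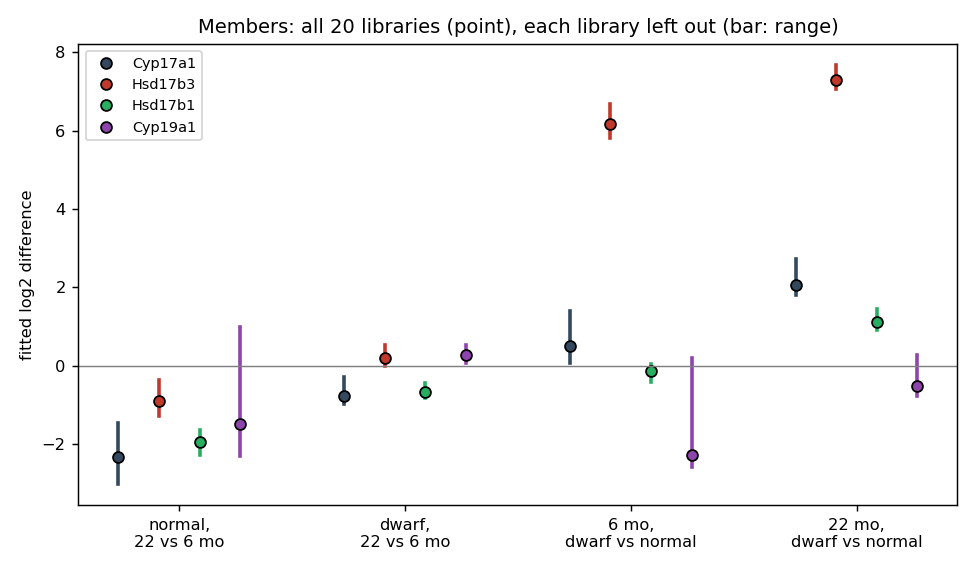
Fitted log2 differences of the 4 genes (vertical axis) in the 4 pairwise comparisons; points use all 20 libraries and bars span the values obtained as each library of the compared groups was left out. Hsd17b3 lies at 6.18 and 7.28 in the genotype comparisons, and the bars of Cyp19a1 cross 0 in 3 of the 4 comparisons.

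Hsd17b1, the granulosa estradiol-forming enzyme, gave 147, 1.97, 117, 187 and 122 CPM in normal 6-month ovaries. Normal 22-month ovaries gave 28.2, 8.16, 10.7, 53.0 and 57.0 CPM. Dwarf ovaries gave 99.4, 82.8, 83.3, 115 and 153 CPM at 6 months and 73.0, 39.3, 105, 65.7 and 72.2 CPM at 22 months. Normal 6-month replicate 2, which had the low follicle and luteal markers, was the lowest of all 20 libraries. With all libraries the ages overlapped in normal mice. Without that 1 library the normal 6-month ovaries (117 to 187 CPM) lay wholly above the normal 22-month ovaries (8.16 to 57.0 CPM). With all libraries, edgeR called 2.6% of all tested genes higher and 4.14% lower with age in normal ovaries. More were called without that library, as given in the section on processing. The share of genes whose ranges separate was not computed. Hsd17b1 was chosen on these values, so nothing is read from its separation.

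Mean Hsd17b1 was 115 ± 69.1 and 31.4 ± 22.9 CPM in the normal 6- and 22-month groups and 107 ± 29.0 and 71.0 ± 23.3 CPM in dwarf mice. The fitted log2 age difference was -1.94 in normal ovaries (SD 2.06) and -0.68 in dwarf ovaries (SD 0.44). Genotypes differed by -0.14 at 6 months (SD 1.87) and by 1.12, higher in dwarf, at 22 months (SD 0.96). The ranges at 22 months overlapped, with 4 of 5 dwarf libraries above all normal ones.

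Cyp19a1 was the member with the fewest reads in dwarf ovaries. Normal 6-month ovaries gave 2.44, 0, 2.93, 46.2 and 2.65 CPM, and normal 22-month ovaries 1.87, 0.515, 1.24, 11.6 and 5.59 CPM. Dwarf ovaries gave 1.40, 0.831, 3.03, 3.16 and 2.86 CPM at 6 months and 3.33, 0.692, 3.72, 3.23 and 3.70 CPM at 22 months. Every pair of groups overlapped. Apart from normal 6-month replicate 4 and 22-month replicates 4 and 5, no library exceeded 3.72 CPM.

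Cyp19a1 group means were 10.8 ± 19.8 and 4.16 ± 4.58 CPM in normal mice and 2.26 ± 1.07 and 2.93 ± 1.27 CPM in dwarf mice, at 6 and 22 months. The fitted log2 genotype difference at 6 months was -2.29, with an SD of 1.72. It rested on normal 6-month replicate 4: without that library it was 0.21, and the age difference in normal ovaries went from -1.50 to 0.98. At 22 months the genotype difference was -0.51 (SD 1.16), and without normal 22-month replicate 4 it was 0.27. The age difference in dwarf ovaries was 0.28 (SD 0.72).

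The normal 6-month ovary with the highest Cyp19a1 also had the highest Cyp17a1 and Hsd17b1 of its group, 610 and 187 CPM. Normal 6-month replicate 2 was the lowest of its group for these 3 genes. Dwarf 22-month replicate 2 was the lowest of its group for all 4. It also had the lowest luteal, granulosa, theca and Sertoli marker sums of that group, whose part in its low levels was not tested. Its Hsd17b3, 5.73 CPM, still exceeded every normal library. Without it the dwarf 22-month means were 216 CPM for Cyp17a1, 43.3 CPM for Hsd17b3, 78.9 CPM for Hsd17b1 and 3.49 CPM for Cyp19a1, and the fitted log2 genotype differences at 22 months were 2.35, 7.57, 1.29 and -0.23.

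Per kilobase of exon, which allows levels to be compared between genes, Cyp17a1 and Hsd17b1 led in each group. Mean levels in normal 6-month ovaries were 111 ± 129 CPM per kilobase for Cyp17a1, 87.3 ± 52.4 for Hsd17b1, 4.57 ± 8.34 for Cyp19a1 and 0.635 ± 0.921 for Hsd17b3. In dwarf 6-month ovaries the order was Cyp17a1 (157 ± 107), Hsd17b1 (81.0 ± 22.1), Hsd17b3 (22.5 ± 12.6) and Cyp19a1 (0.951 ± 0.449). At 22 months Hsd17b1 (23.9 ± 17.4) and Cyp17a1 (22.6 ± 21.8) lay within their spread in normal ovaries, above Cyp19a1 (1.75 ± 1.93) and Hsd17b3 (0.159 ± 0.0724). Dwarf ovaries at 22 months had 97.0 ± 49.5, 53.9 ± 17.7, 27.8 ± 14.8 and 1.24 ± 0.536 for Cyp17a1, Hsd17b1, Hsd17b3 and Cyp19a1. Library by library, Hsd17b3 was above Cyp19a1 in 5 of 5 dwarf ovaries at each age, in 2 of 5 normal ovaries at 6 months and in 0 of 5 at 22 months. The 2 were normal 6-month replicate 2, with 4 Hsd17b3 and 0 Cyp19a1 reads, and replicate 3, with 4 reads of each. Both are among the libraries that stood apart, and their order rests on these few reads. In normal 6-month ovaries the means of these 2 genes lay within their spread.

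Ratios of read counts within a library do not depend on its depth. Hsd17b3 reads per 100 Cyp17a1 reads were 14.1, 7.70, 8.24, 11.4 and 11.9 in dwarf 6-month ovaries and 22.0, 20.6, 16.1, 14.6 and 29.7 in dwarf 22-month ovaries. These 2 ranges did not overlap but lay close. The nearest libraries had 1065 Hsd17b3 and 7547 Cyp17a1 reads at 6 months, and 341 and 2329 reads at 22 months. Ratios of other gene pairs were also computed, and the share of pairs that separate in this way was not. The genes were chosen on these levels, so nothing is read from the separation. Normal ovaries lay between 0.0584 and 9.09 at 6 months, and between 0.183 and 5.04 at 22 months, on 1 to 8 Hsd17b3 reads each. The highest of these, 9.09, was normal 6-month replicate 2, with 4 Hsd17b3 and 44 Cyp17a1 reads.

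**Figure D3:**
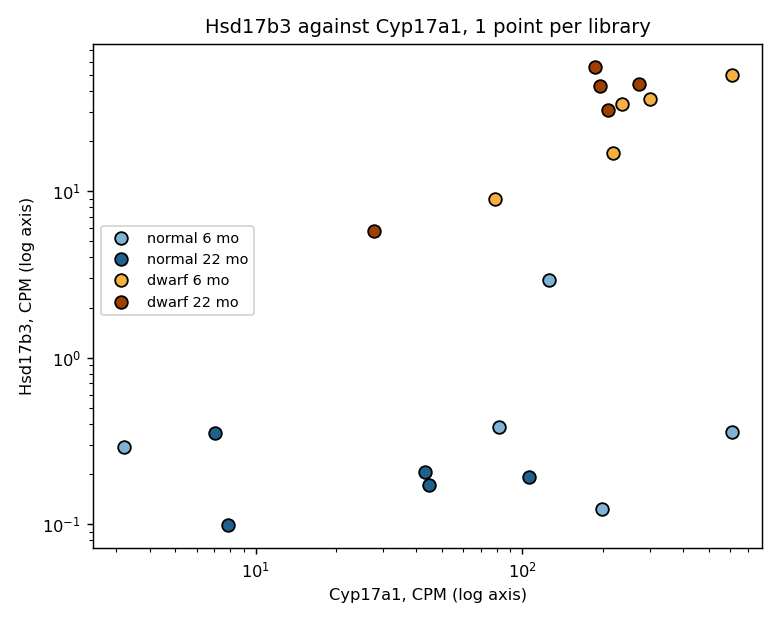
Hsd17b3 against Cyp17a1, both in CPM on log axes, 1 point per library, coloured by genotype and age. Normal and dwarf ovaries span overlapping Cyp17a1 levels, while Hsd17b3 is at 2.93 CPM or less in normal and at 5.73 CPM or more in dwarf ovaries.

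The balance of Cyp17a1 with Cyp11a1, the enzyme that makes pregnenolone from cholesterol and feeds the pathway, also separated the genotypes. Cyp17a1 reads per 100 Cyp11a1 reads ran from 1.95 to 20.3 in normal 6-month ovaries (median 6.66) and from 0.208 to 6.51 in normal 22-month ovaries (median 3.21). In dwarf ovaries they ran from 134 to 190 at 6 months (median 158) and from 42.7 to 123 at 22 months (median 91.0). No dwarf library overlapped a normal one, and the dwarf ages did not overlap each other. As above, the share of gene pairs that separate in this way was not computed, so these separations are a description. Cyp11a1 itself averaged 2501 ± 1538 and 1989 ± 1425 CPM in normal and 165 ± 95.5 and 190 ± 71.3 CPM in dwarf ovaries. Hsd17b1 per 100 reads of Inha, the granulosa inhibin subunit, lay between 1.97 and 8.29 in all 20 libraries.

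**Figure D4:**
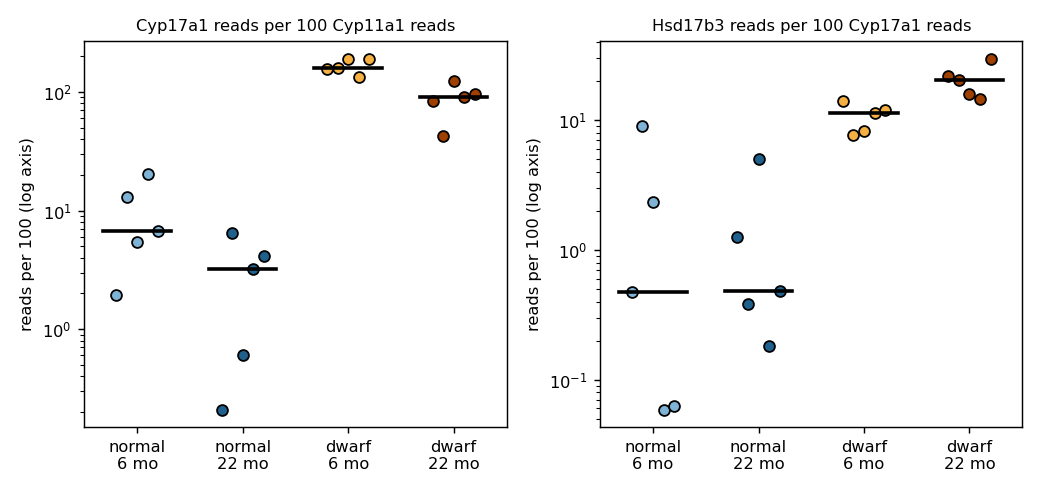
Reads of Cyp17a1 per 100 reads of Cyp11a1 (left) and of Hsd17b3 per 100 reads of Cyp17a1 (right) on log axes, by library (points) and group median (lines). Left, dwarf ovaries lie at 42.7 or more and normal ovaries at 20.3 or less; right, dwarf 22-month ovaries lie at 14.6 or more and dwarf 6-month ovaries at 14.1 or less.

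The genes with the pattern most like each member were found among 16098 other tested genes, over 20 libraries that share 4 groups and differ in depth. Hsd17b1 was most like Inha (Spearman rho 0.96) and Dhh, the hedgehog ligand made by granulosa cells (0.95), followed by Thbs4, St3gal5 and Grm2 (0.93 or more). Its deviations from group means were most like those of Tcl1, Fst, Inha, Thbs4 and Cnnm1 (Pearson r 0.96 to 0.98). These r include normal 6-month replicate 2, where Hsd17b1 was 1.97 CPM and Inha 36.0 CPM, against group medians of 122 and 2382 CPM. That library was also the lowest of its group for Cyp17a1 and Cyp19a1. Its part in the r of deviations was not tested. Cyp19a1 was most like Inhba, the activin subunit, by both measures (rho 0.75, r 0.90). By rho it was next most like Nppc, Pcgf1, Dcun1d1 and Pomt2, and by deviations Lrrc16b, Ak4, Jsrp1 and Zfyve9; Hsd17b1 stood at rank 7 by deviations (r 0.85).

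Cyp17a1 was most like Ak4 (rho 0.92), Pja1 (0.91), Ppara (0.87), Trim62 (0.87) and Acsbg1 (0.85). By deviations it was most like Itih2, Pak3, Bpifb5, Serpina3a and Aldh1a1 (r 0.89 to 0.91). Hsd17b3 was most like C7, a complement component (rho 0.92), Rhcg (0.92), Rarres1 (0.91), Eppin (0.91) and Sult1e1, the estrogen sulfotransferase (0.90). Its deviations were most like those of C7 (r 0.88), Sfxn2, Gstk1, Insl3 and Sult1e1 (0.86 to 0.87). C7 averaged 4.01 ± 3.36 and 2.60 ± 0.479 CPM in normal and 85.8 ± 38.4 and 107 ± 48.0 CPM in dwarf ovaries. Among the members, Hsd17b3 stood farthest from the others by deviations, with r of 0.38 to Cyp17a1, 0.22 to Cyp19a1 and 0.19 to Hsd17b1. In normal ovaries its deviations rest on 1 to 8 reads per library, so counting error enters these r. Within dwarf 6-month ovaries Hsd17b3 and Cyp17a1 ranked the libraries in the same order. At 22 months both were lowest in dwarf replicate 2, and the order of the other libraries differed.

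Insl3, the insulin-like hormone of theca and Leydig cells, was at 67.2 ± 25.7 and 15.0 ± 10.7 CPM in dwarf ovaries at 6 and 22 months and at 1.03 ± 1.07 and 0.665 ± 0.369 CPM in normal ovaries. Hsd17b3 reads per 100 Insl3 reads were 26.2 to 55.3 in dwarf 6-month ovaries and 183 to 580 in dwarf 22-month ovaries. These did not overlap, which is again given as a description. Markers of other cell types were set beside Hsd17b3, on lists drawn up with earlier results of these data known. The summed list of 5 Sertoli cell markers was 81.8 to 316 CPM and 92.2 to 117 CPM in normal ovaries, and 1950 to 6358 CPM and 563 to 3406 CPM in dwarf ovaries. Of the 4 tested, 2 passed the edgeR test as higher in dwarf ovaries at both ages (2.27% and 1.96% of all tested genes). Sox9 overlapped between genotypes at both ages. It was at 5.57 to 115 and 36.4 to 65.0 CPM in normal and 3.88 to 36.5 and 40.2 to 55.8 CPM in dwarf ovaries. Dhh, which granulosa cells also make, was at 0.874 to 34.9 and 1.41 to 7.32 CPM in normal ovaries. In dwarf ovaries it was at 19.5 to 28.3 and 7.61 to 13.1 CPM. Most of the sum was Ptgds (1863 to 6272 CPM in dwarf 6-month ovaries); Dmrt1 was at 0 in 13 of 20 libraries and at most 0.687 CPM.

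Of 5 adrenal cortex markers, Cyp21a1 was at 11.7 to 75.7 and 7.71 to 86.5 CPM in dwarf ovaries and at 3.86 CPM or less in normal ovaries, while the defining Cyp11b1, Cyp11b2 and Mc2r were at 1.67 CPM or less in every library. Mrap, the fifth, was at 1.82 to 139 and 12.7 to 117 CPM in normal and at 19.0 to 53.0 and 9.98 to 30.2 CPM in dwarf ovaries. The summed adrenal list overlapped between genotypes (3.50 to 139 and 15.3 to 118 CPM in normal, 30.7 to 129 and 18.3 to 115 CPM in dwarf ovaries). Of the luteal markers, 4 of 7 at 6 months and 3 of 7 at 22 months passed as lower in dwarf ovaries (2.3% and 1.86% of all tested genes). The Cyp17a1 to Cyp11a1 balance was higher there, and Cyp11a1 is both its divisor and on the luteal list. The luteal sum was 213 to 13833 and 2555 to 11301 CPM in normal against 1830 to 3409 and 1583 to 4205 CPM in dwarf ovaries. Summed theca markers were 220 to 967 and 297 to 525 CPM in normal and 664 to 851 and 447 to 682 CPM in dwarf ovaries. Of the 7, 1 and 2 passed as higher (2.27% and 1.96% of all tested genes). Summed granulosa markers, which moved with Hsd17b1, were 284 to 5931 and 634 to 2265 CPM in normal and 3036 to 4861 and 1427 to 2850 CPM in dwarf ovaries. Other lists differed in level with age beside Cyp17a1 and Hsd17b1. Summed oviduct markers were 2171 to 4069 CPM in normal 22-month ovaries, against 24.4 to 296 CPM at 6 months outside replicate 2, and 2110 to 3780 against 34.5 to 1748 CPM in dwarf ovaries, with 0 of 6 passing edgeR's test in either genotype. Of the tested markers, 4 of 4 for B and plasma cells passed as higher with age in normal ovaries (2.6% of all genes). Igj, also on that list, was not in this count. Normal 22-month replicate 3 had the largest sum, 1069 CPM, and edgeR called 0 genes with the 2 normal groups fitted alone. In dwarf ovaries 4 of 5 adipocyte markers passed as higher (2.92% of all genes). In each genotype 1 of 10 granulosa and 1 of 7 theca markers passed as lower (4.14% of all genes in normal and 8.27% in dwarf ovaries). Nothing is read from these single calls. The part of these cell types in the member differences was not tested, and in whole ovaries fewer cells of a type and less RNA per cell cannot be told apart.

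The nearest counted genes that do not overlap a member were examined, being chosen by position. Cyp17a1 and Hsd17b1 each overlap 1 other annotated gene, which was not examined here. Wbp1l, 9776 bases from Cyp17a1, was called lower with age in dwarf ovaries (-0.37, edgeR adjusted p = 0.0386); omitting single dwarf libraries, an alternative chosen after seeing the data, lost the call in 8 of 10 fits (edgeR adjusted p 0.0335 to 0.128 over the 10). Wbp1l was not called with age in normal ovaries or between genotypes, and 2010012O05Rik, on the other side, was not called in any comparison. Tnfaip8l3, 97526 bases from Cyp19a1, had a dwarf minus normal log2 difference of -2.74 at 6 months that did not pass (edgeR adjusted p 0.113). Slc35d2, 7109 bases from Hsd17b3, had dwarf minus normal log2 differences of 0.22 at 6 months and 0.10 at 22 months (edgeR adjusted p 0.680 and 0.929). Ercc6l2, 157973 bases away on the other side, had 0.11 and 0.71 (edgeR adjusted p 0.880 and 0.147). Neither passed, although Hsd17b3 between them differed by 6.18 and 7.28. Naglu, 740 bases from Hsd17b1, had an age difference of -0.50 in normal ovaries and Coasy, 2120 bases away, had -0.21 (edgeR adjusted p 0.228 and 0.533).

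A list of 52 other genes around these 4 enzymes was examined in the same fit, of which 45 could be tested. The list was drawn up with earlier results of these data known. Its counts and adjusted p-values are therefore a description and not an independent test. Hsd3b3, Hsd17b6 and Akr1c6 did not pass the filter, and Cyb5a, Hsd17b8, Sts and Gper1 were not analysed here. In dwarf against normal ovaries at 6 months, 2 were called higher and 4 lower, with a median log2 difference of -0.13 against -0.04 over all tested genes (called: 2.27% higher and 2.3% lower, as above). At 22 months 2 were higher and 2 lower (median -0.15 against -0.04; 1.96% and 1.86% of all genes). The genes lower at 6 months included 3 of the 8 tested genes of substrate supply from cholesterol to progesterone, whose median was -1.56. Without normal 6-month replicate 2, the number called at 6 months was 12 of the 45. At 22 months it was 2 without dwarf replicate 1, 3, 4 or 5 or normal replicate 1, and 10 without the 3 normal libraries that stood apart.

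Cyp11a1 fell by 3.95 on the log2 scale in dwarf ovaries at 6 months (SE 0.83, edgeR adjusted p = 0.0097). Fdx1, the ferredoxin that passes electrons to it, fell by 3.50 (SE 0.59, edgeR adjusted p = 0.00242). At 22 months the falls were 3.46 for Cyp11a1 and 2.07 for Fdx1 (edgeR adjusted p = 0.0225 and 0.0459); the Cyp11a1 call was lost without any 1 of the 5 dwarf 22-month libraries or without normal 22-month replicate 1 (edgeR adjusted p 0.0514 to 0.0627), and the Fdx1 call without any 1 of the 10 libraries (0.0521 to 0.118). With the 2 compared groups fitted alone, Cyp11a1 at 6 months had an edgeR adjusted p of 0.0709. Scarb1, the lipoprotein receptor that brings in cholesterol, was also called at 6 months (-2.21, edgeR adjusted p = 0.0413) and is named after its value was seen. Por, the electron donor of both CYP17A1 and CYP19A1, fell by 0.66 in dwarf ovaries at 6 months (edgeR adjusted p = 0.0197), a call lost without dwarf 6-month replicate 1, 3, 4 or 5 (edgeR adjusted p 0.0641 to 0.0796).

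Sult1e1, which sulfates and so inactivates estrogens, rose in dwarf ovaries by 6.91 (SE 0.79) at 6 months and 7.30 (SE 0.73) at 22 months (edgeR adjusted p = 0.000173 and 2.68e-05). Its mean was 10.7 ± 4.84 and 21.5 ± 9.60 CPM in dwarf ovaries and 0.188 ± 0.309 and 0.114 ± 0.147 CPM in normal ovaries, some of which had no read. Nr0b1 (DAX1), a nuclear receptor that represses steroidogenic genes, rose by 2.29 and 2.02 (edgeR adjusted p = 0.0049 and 0.0113). Both genes still passed whichever single library was omitted.

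**Figure D5:**
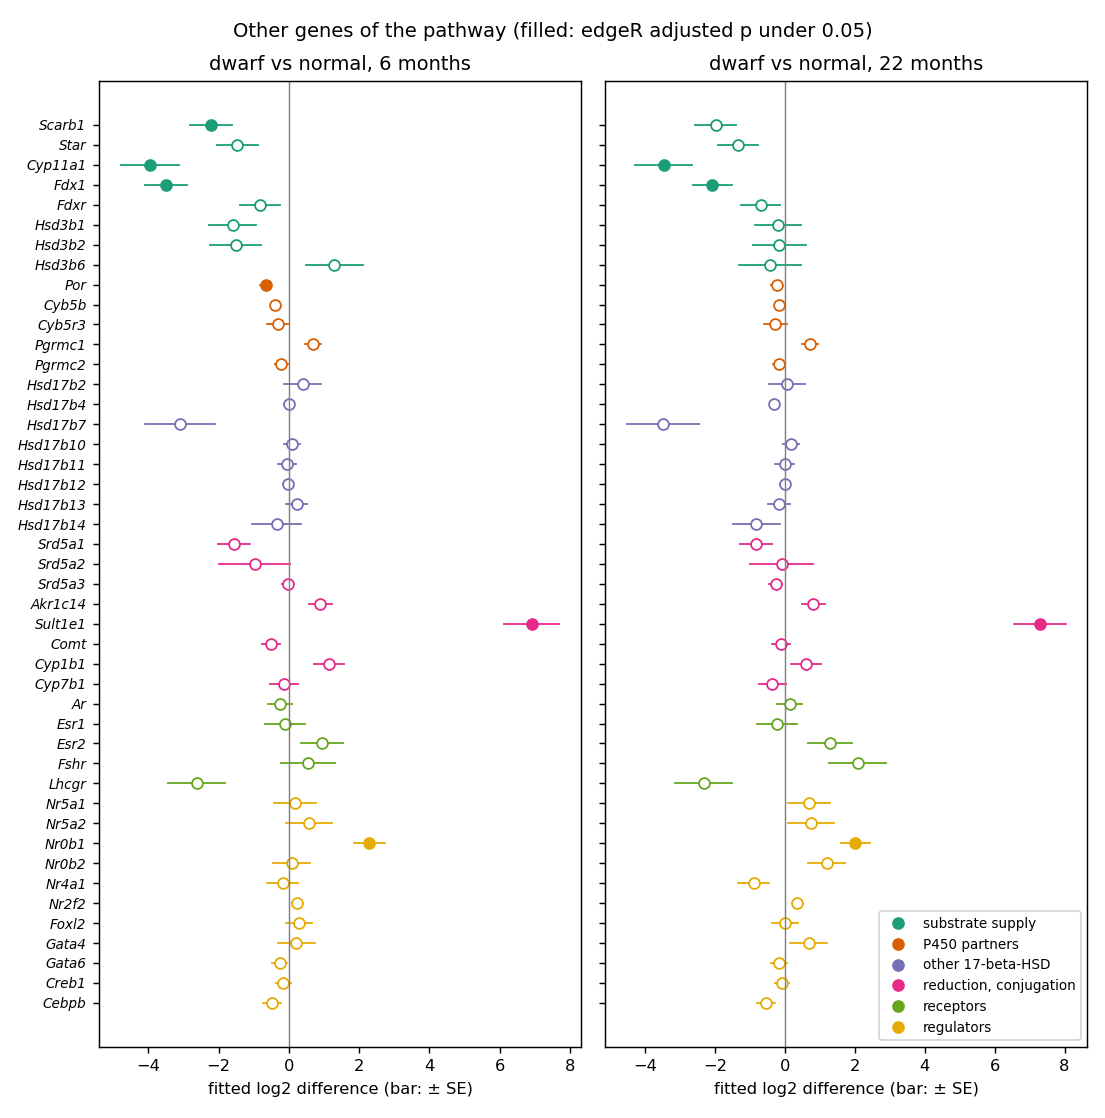
Fitted log2 difference between dwarf and normal ovaries at 6 months (left) and 22 months (right) for the 45 tested genes around the 4 enzymes, coloured by role; bars are ± SE and filled points passed edgeR's test at an adjusted p under 0.05. Sult1e1 lies at 6.91 and 7.30, and Cyp11a1 at -3.95 and -3.46.

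With age, 1 of the 45 genes was called higher and 1 lower in normal ovaries (2.6% and 4.14% of all genes), and 2 higher and 2 lower in dwarf ovaries (2.92% and 8.27% of all genes). Without normal 6-month replicate 2, the number called in normal ovaries was 17, and it was 0 without 6-month replicate 1 or 4. In dwarf ovaries it was 1 without 6-month replicate 1, 2 without 22-month replicate 2 or 6-month replicate 4 or 5, and 13 without the 3 normal libraries that stood apart. Cyb5b, a cytochrome b5 of the outer mitochondrial membrane, rose by 0.46 in normal and 0.67 in dwarf ovaries (edgeR adjusted p = 0.0184 and 0.00148), and the normal call was lost without 6-month replicate 1 or 4 (edgeR adjusted p 0.0553 and 0.0759). Esr2, the estrogen receptor of granulosa cells, fell by 2.39 and 2.04 (edgeR adjusted p = 0.0306 and 0.0417), calls lost in 7 and 9 of the 10 single omissions (edgeR adjusted p up to 0.0896 and 0.0965). With the 2 normal groups fitted alone, edgeR called 0 genes with age over the whole table. The adjusted p in that edgeR fit was 0.225 for Cyb5b and 0.262 for Esr2. In dwarf ovaries Por rose by 0.58 and Hsd17b4, a peroxisomal enzyme that can oxidize estradiol, fell by 0.52 (edgeR adjusted p = 0.022 and 0.0142). The Por call was lost without dwarf 22-month replicate 2 or 6-month replicate 1 or 4 (edgeR adjusted p up to 0.0631), and the Hsd17b4 call without dwarf 6-month replicate 1 or 5 (up to 0.0803). For the difference between genotypes in the age response, edgeR called 0 genes of 16099 (0% higher and 0% lower), so 0 of the 45; 1127 genes had an unadjusted p under 0.05, and DESeq2 called 17.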

How the data were processed

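Ovarian polyadenylated RNA of 20 mice was sequenced from Trizol extracts, per the labels' protocols. The genome build was mm10, and the submitters' processing notes name TopHat2 2.0.10 and HTSeq among the tools; whether counting used strand is not given in the sources used here. Each deposited file holds raw counts for 23457 genes of 1 library, and its 5 summary rows (9.84 to 17.6% of the file) were dropped. Levels are CPM, counts scaled to the library total over genes. The 4 genes and all lists were chosen with earlier results of these data known. Libraries were fitted together in R 4.3.3 with edgeR 4.0.16 (filterByExpr minimum count 10, TMM, quasi-likelihood test, 4 group means); p-values were adjusted by the Benjamini-Hochberg method over 16099 genes. The procedure was tested on simulated data. Genes outside the 4 were named by rule: per list, up to 2 with the smallest p among those called, and the 5 most alike by each measure; the chromosomal neighbours were added later, by position. The 0.5 pseudocount applies to spreads. Alternatives included DESeq2 1.42.0, other filters and scalings, and each library left out. A level of 0 reads is drawn at 3 counts.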

Additional observations from a re-analysis of the deposited data

Results flagged for a closer look

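Of 16 sets of 5 libraries (4 genes in 4 groups), 3 had a library far from the others, with a gap above 0.71 of the group's range; chance alone marks about 1 set in 20 where values are normally distributed. The genes were chosen on these levels and the sets share libraries, so the 3 are given as a description. Cyp19a1 was 46.2 CPM in normal 6-month replicate 4, against 2.93 CPM or less in the rest of that group. Cyp19a1 was 0.692 CPM in dwarf 22-month replicate 2, against 3.23 to 3.72 CPM in the other libraries. Hsd17b3 was 2.93 CPM in normal 6-month replicate 3, on 4 reads in the shallowest library, against 0.385 CPM or less in the others.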

How the results depend on the processing

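Of 415 alternative values of the 20 member differences, 406 moved by less than 1 SD between replicates; those that moved further follow. Without normal 6-month replicate 4, the Cyp19a1 genotype difference at 6 months was 0.21, its age difference in normal ovaries 0.98 and its difference of age responses -0.70 (1.78 with all libraries); over all single omissions these ran from -2.60 to 0.21, from -2.30 to 0.98 and from -0.70 to 2.58. As means of log2(CPM + 0.5), the genotype difference was -0.55 for Cyp19a1 at 6 months (-0.56 without the ribosomal gene Rn45s) and 4.58 and 5.38 for Hsd17b3 at 6 and 22 months (4.61 and 5.44 without it); the added 0.5 exceeds most normal Hsd17b3 levels. The cause of the other shifts was not tested.

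In the order normal age, dwarf age, genotype at 6 months and genotype at 22 months, 1086, 1802, 735 and 614 genes were called over the whole table, and 2, 4, 6 and 4 of the 45 pathway genes. DESeq2 called 1766, 2747, 1414 and 1201 genes, 17 for the difference of age responses, and 10 and 8 pathway genes between genotypes. Fits of the 2 compared groups alone called 0, 5169 and 244 genes in the first 3 comparisons and 0, 17, 3 and 9 pathway genes. At an adjusted p under 0.1 the counts were 1906, 2959, 1246 and 1150, and 4, 7, 11 and 7. Omitting the 3 normal libraries that stood apart (6-month replicates 2 and 3, 22-month replicate 3), they were 4848, 4697, 1991 and 1762, with 202 for the difference of age responses, and 17, 13, 12 and 10. Summing dwarf 22-month replicates 1 and 4, an alternative chosen after seeing the data, left 1107 calls for dwarf age and 272 for genotype at 22 months, with 2 pathway genes in the latter. Leaving out each library in turn gave 481 to 4384, 802 to 1681, 369 to 1459 and 262 to 637 genes, 0 to 1 for the difference of age responses, and 0 to 17, 1 to 5, 4 to 12 and 2 to 5 pathway genes; the highest counts of normal age and of genotype at 6 months came without normal 6-month replicate 2.

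The replicate numbers are shared between groups but did not pair the samples: same-numbered samples correlated above 0.1 in 10 of 30 pairs (-0.22 to 0.72), and a library correlated best with its own number in 17 of 60 cases. With the replicate block, 1118, 1904, 672 and 560 genes and 2, 5, 7 and 5 pathway genes were called, and 0 and 0 for the difference of age responses; the Esr2 calls with age were lost (edgeR adjusted p 0.0669 in normal and 0.0544 in dwarf ovaries). The member differences stayed within 1 SD of those without the block. Normal Hsd17b3 levels rest on 1 to 8 reads per library, which limits their precision.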
